A study of Mus musculus with 24 samples.

Results

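The comparison set livers of mice made diabetic with streptozotocin (STZ) against livers of untreated mice, both kept on a plain purified diet, and asked which genes differed between them. It used 12 arrays, the 6 labelled as STZ diabetic and the 6 labelled as control on the plain diet, of the 24 arrays of the study; the other 12 came from STZ mice fed the diet with 0.1% or 0.5% quercetin. All animals were male BALB/c mice, 6 weeks old when they arrived and housed 3 to a cage. STZ was given once into the abdomen at 185 mg/kg in citrate buffer. The labels describe the controls as given no treatment and mention no buffer injection for them. After 1 week, mice whose blood glucose without fasting was 230 to 400 mg/dL were kept as diabetic, and both groups then ate plain AIN93G diet for 14 days before the liver was taken. Neither the glucose value of each mouse nor its cage is given, and the action of STZ on the liver and the diabetes it causes cannot be told apart in this design.

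STZ is a sugar-linked methylating agent that enters cells through the glucose transporter GLUT2, kills the insulin-producing beta cells of the pancreas by damaging their DNA, and so removes most circulating insulin. Liver also carries GLUT2. Insulin normally holds down glucose production in the liver and drives fat synthesis, while growth hormone sets the sex-dependent pattern of many liver enzymes and secreted proteins. DNA damage activates the transcription factor p53, whose targets include cell cycle inhibitors. Interferons induce antiviral and antigen presentation genes in most cell types.

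Each array measured 45101 probe sets, of which 34958 carried exactly 1 gene symbol and covered 18194 genes. Values were scaled to a common distribution over all 24 arrays and are given as log2(intensity + 16), so a probe set with no signal sits at 4 and the change of a dim gene is understated. Of a gene's probe sets the brightest stood for it, and 13114 genes above a signal filter were tested with limma, a linear model fitted across all genes. A gene was called when its Benjamini-Hochberg adjusted p was under 0.05; all differences are STZ minus control on the log2 scale. In this comparison 488 genes (3.72% of those tested) were called, 266 higher (2.03%) and 222 lower (1.69%) in STZ liver. Without the array of STZ mouse 6 the counts were 146 and 100, and the lower calls also numbered 114, 131, 130 and 147 without control 3, control 4, STZ 3 and STZ 2 in turn. The higher share of the calls was 54.5%, but 74.5% on the values as deposited (120 higher, 41 lower) and 37.7% after scaling each array to a common median (170 higher, 281 lower). No call among the 163 genes named by rule changed sign in these settings; of the genes that were not called, Fgf21 and Txnip did on the values as deposited (to 0.08 and 0.10) and Hamp after median scaling (to -0.07).

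The error of each test also drew on the 12 quercetin arrays, and 2 of these went against their label. The libraries labelled STZ with 0.5% quercetin, mice 5 and 6, lay at -17.2 and -19.2 on the first principal component, beside the controls (-18.3 to -13.5) and away from the other 16 arrays labelled STZ (-0.861 to 19.6). Cplane1, the gene with the widest rise in STZ mice, stood at 4.32 and 4.86 in them, Cdkn1a at 5.01 and 4.72 and Ly6e at 9.28 and 9.36, each near the control level. They are no part of the groups compared and leave the differences as they are, but they widen the error. Without them 345 genes were called higher and 307 lower, and no gene named by rule lost its call. Lists with at least 2 calls whose higher count then moved by more than 1.5 times were Kupffer cell markers (6 to 10), class I antigen presentation (2 to 5), glutathione S-transferases (3 to 5), the Cyp4a and thioesterase list (2 to 4) and periportal markers (3 to 6).

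Over all genes tested, the STZ mean was above the control mean in 5868 (44.7%), and 2194 (16.7%) had an unadjusted p under 0.05. Most called changes were small. Their median was 0.56 for genes that rose and -0.42 for genes that fell, against a median of -0.02 over all genes tested. At least 2-fold rises were found for 49 genes (0.374%) and at least 2-fold falls for 17 (0.13%); 12 and 2 of these passed 4-fold. All 6 STZ mice lay above all 6 controls for 257 genes (1.96%) and below them for 292 (2.23%), called or not. Among the called genes, 189 rises and 161 falls separated the groups in this way, and 77 and 61 left them overlapping.

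**Figure D1:**
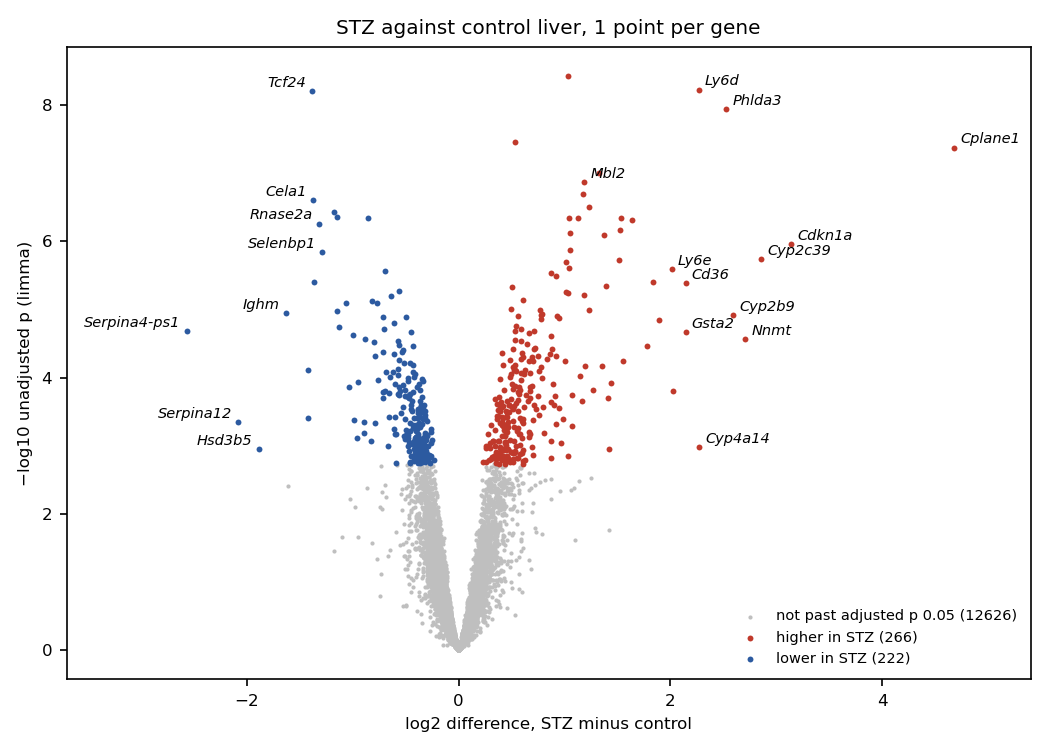
Each point is 1 of the 13114 genes tested, with the log2 difference between STZ and control liver on the x axis and -log10 of the unadjusted limma p on the y axis; red points (266) were called higher and blue points (222) lower. The widest rise is that of Cplane1 at 4.68 and the widest fall that of Serpina4-ps1 at -2.56.

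The arrays were close to each other over the genes tested, each read by its brightest probe set. Their correlation was 0.981 to 0.989 between controls, 0.980 to 0.988 between STZ mice and 0.970 to 0.983 across the groups. One measure of RNA quality moved with the groups. The log2 signal of the Gapdh 3' control probe set minus that of its 5' partner was -0.04 ± 0.17 (SD, n = 6) in the controls and -0.34 ± 0.10 (SD, n = 6) in the STZ mice, while the same measure for Actb was 1.24 ± 0.19 and 1.12 ± 0.23. With the Gapdh measure of each array as a covariate, 6 calls were left: Ly6d (1.85), Phlda3 (1.95), Ifi27l2b (0.94) and Aebp2 (0.48) higher, Tcf24 (-1.21) and Pcbp4 (-0.73) lower. The covariate fit held all 24 arrays, with quercetin 0.5% arrays 5 and 6, which lay beside the controls on the first principal component. Their Gapdh measures were -0.06 and 0.01, near the control mean. The covariate fit was not run without them, so their part in its result is not known. That fit left 1 call in the p53 arrest list, 1 in the type I interferon list and 0 in the other lists described here; the part of RNA quality in the results was not tested further. The gene lists, 48 for pathways and 13 for cell types, are described by how many of their tested members were called. Members and lists were chosen with earlier results of these data known, so a count set beside the share over all genes is a description with no test. Beyond the 4 largest changes of a list, called members were picked for naming after their values were seen, and leaving out 1 array at a time was run for the genes named by rule.

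Of 26 tested targets of p53 that act in growth arrest, feedback and metabolism, 14 rose, 0 fell and the remaining 12 missed the threshold. Their median was 0.55, and 12 members separated the groups with the STZ mice above. Levels of Cdkn1a, which encodes the cyclin-dependent kinase inhibitor p21, ran from 4.85 to 6.04 (median 5.57) in the controls and from 8.40 to 8.91 (median 8.63) in the STZ mice. Every STZ mouse lay more than the whole control range above the controls, and the difference was 3.13 (SE 0.50, adjusted p = 0.00063), or 8.78-fold. Phlda3, an inhibitor of the kinase Akt, ran from 4.58 to 4.93 (median 4.64) in the controls and from 6.89 to 7.58 (median 7.27) in the STZ mice, again with no overlap, a difference of 2.52 (SE 0.31, adjusted p = 3.74e-05). Ccng1, a cyclin that binds phosphatases, ran from 7.01 to 7.31 (median 7.25) in the controls and from 8.37 to 8.92 (median 8.74) in the STZ mice and differed by 1.52 (SE 0.24, adjusted p = 0.000448). All 3 genes had narrow ranges in both groups relative to the gap between them.

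Trp53inp1, a cofactor in p53 signalling and autophagy, rose by 1.53 (SE 0.23) with the groups separate, from a highest control of 7.95 to a lowest STZ mouse of 8.87. Mdm2, the ubiquitin ligase that degrades p53, rose by 0.60 (SE 0.16, adjusted p = 0.0299) and Sesn2, a stress sensor that restrains mTORC1, by 0.80 (SE 0.19, adjusted p = 0.0162). Named after their values were seen, the kinase gene Plk2 (1.39), the nuclease gene Aen (1.33), the RNA-binding protein gene Zmat3 (1.05), Psrc1 (1.01), the antiproliferative gene Btg2 (0.92), Cgref1 (0.56) and Ckap2 (0.46) were the other called members beside Ephx1. Calls were lost when an array was left out for Mdm2 (without 7 of the 12 arrays, adjusted p up to 0.076 without STZ 5) and Sesn2 (adjusted p = 0.0571 without STZ 6), and Mdm2 was not called on the values as deposited. A second Cdkn1a probe set differed by 0.92. Mdm2 had other probe sets at 0.93 (adjusted p = 0.00032 in the limma fit over every probe set) and at -0.13. The latter had an unadjusted p of 0.198 in that fit and a control mean of 4.42.

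In the list of death-promoting targets of p53, 15 were tested, of which 1 was higher and 1 lower, with a median of 0.06. The called pair was Fas, a death receptor, at 0.61 (SE 0.17, adjusted p = 0.0379), and Perp, a desmosomal membrane protein, at -0.42 (SE 0.11, adjusted p = 0.0239). Neither held on the values as deposited. These counts depend on which genes were placed in the list. The nuclease gene Aen (1.33) was counted in the arrest list. The death receptor gene Eda2r (1.03), chosen after its value was seen, was in no list. DNA repair genes gave 1 higher and 1 lower call of 31 (median -0.03): the translesion polymerase gene Polk at 0.50 (SE 0.12) and the base excision polymerase gene Polb at -0.38 (SE 0.11). In the limma fit over every probe set, another Polk probe set differed by -0.003. Those of Polb differed by 0.08, -0.03 and -0.30, the last with an adjusted p of 0.0414. Leaving out arrays ended the calls of Fas (without 9 of the 12 arrays, adjusted p up to 0.111 without STZ 6), Perp (without 5 of the 12 arrays, adjusted p up to 0.0651 without control 5), Polb (without 9 of the 12 arrays, adjusted p up to 0.12 without control 3) and Polk (adjusted p = 0.0571 without STZ 6).

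Cell cycle genes gave 2 higher calls of 30, with a median of 0.01. Ccnd1, the cyclin that opens the G1 phase, ran from 5.70 to 6.30 (median 6.19) in the controls and from 7.12 to 7.81 (median 7.34) in the STZ mice. Its groups did not overlap and the difference was 1.36 (SE 0.29, adjusted p = 0.00764). Cdk1, the mitotic kinase, stood at 0.47 (SE 0.12, adjusted p = 0.0237). The Cdk1 call was lost on the values as deposited and when arrays were left out for Cdk1 (without control 5, STZ 3 or STZ 4, adjusted p up to 0.0678).

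The largest change of all belonged to Cplane1, a gene of primary cilium assembly. Its levels ran from 4.25 to 4.67 (median 4.48) in the controls and from 8.35 to 9.76 (median 9.14) in the STZ mice. No STZ mouse came near a control, and the difference was 4.68 (SE 0.62, adjusted p = 9.18e-05), or 25.6-fold. It was 6.36 with a pseudocount of 1 and 3.13 with a pseudocount of 64, since the control level was close to the lowest a probe set can have. The other 5 probe sets of Cplane1 over the filter differed by 2.57, 1.81, 1.31, -0.06 and -0.15, so they did not all show the rise.

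**Figure D2:**
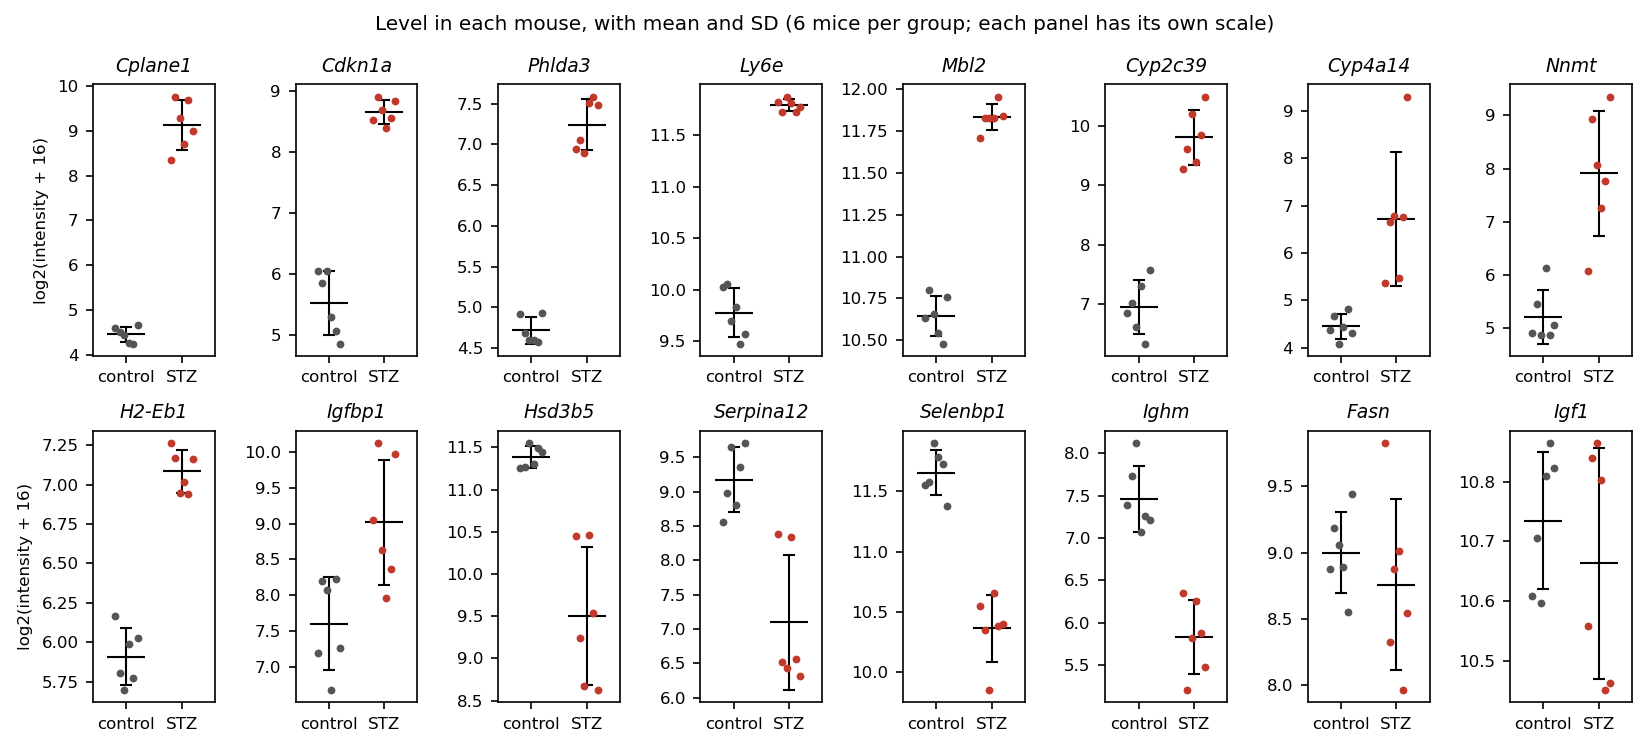
Each panel plots the level of 1 gene in each of the 6 control (grey) and 6 STZ (red) mice as log2(intensity + 16), with the mean and SD in black, on a scale of its own. Ly6e, Mbl2 and H2-Eb1 show tight groups with a gap, Cyp4a14, Nnmt and Hsd3b5 spread widely within the STZ group, and Fasn and Igf1 overlap.

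Of 35 tested genes induced by type I interferon, 16 rose, 0 fell and the remaining 19 missed the threshold, with a median of 0.48; 15 members separated the groups. Usp18, which removes the ubiquitin-like ISG15 and damps the interferon receptor, rose by 1.15 (SE 0.25, adjusted p = 0.00926). Ifi27l2b, of a family of small interferon-induced membrane proteins, rose by 1.03 (SE 0.12, adjusted p = 2.72e-05) and Irf7, the transcription factor that amplifies the response, by 0.97 (SE 0.26, adjusted p = 0.0325). The Ifi27l2b probe set is marked by the array maker as able to bind related sequences. Its control mean was 4.56, close to the lowest a probe set can have, and its change ran from 0.43 to 1.99 over the alternative settings. Ifit1, which binds foreign RNA caps, rose by 0.89 (SE 0.20, adjusted p = 0.0107). All 6 STZ mice exceeded all controls for Usp18, Ifi27l2b, Irf7 and Ifit1. Named after their values were seen, the RNA sensor genes Ifih1 (0.48) and Zbp1 (0.69), the antiviral effectors Oas1a (0.88), Mx2 (0.84), Rsad2 (0.79) and Bst2 (0.61), and Ifi27 (0.88), Ifi27l2a (0.52), Lgals3bp (0.75), Rtp4 (0.61), Herc6 (0.60) and Ifit2 (0.52) were also called. The count of 16 was 9 on the values as deposited, 8 without control 5, control 6 or STZ 6, 9 without control 2 and 10 without STZ 1. Among the genes named by rule, the call of Irf7 (without 7 of the 12 arrays, adjusted p up to 0.0782 without STZ 6) was lost.

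Genes induced by interferon-gamma, mostly guanylate-binding GTPases that attack intracellular parasites, gave 5 higher and 0 lower calls of 15 (median 0.25). Gbp3 rose by 1.04 (SE 0.18, adjusted p = 0.00109), Gbp6 by 0.87 (SE 0.25, adjusted p = 0.0438) and Igtp by 0.61 (SE 0.15, adjusted p = 0.0205). Cxcl9, a chemokine that attracts T cells, rose by 0.76 (SE 0.16, adjusted p = 0.0083), and Gbp7, named after its value was seen, by 0.56. The count fell to 3 without STZ 1, STZ 3 or STZ 6. Calls lost without an array were those of Gbp6 (without 11 of the 12 arrays, adjusted p up to 0.105 without control 6) and Igtp (without 4 of the 12 arrays, adjusted p up to 0.0571 without STZ 6).

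Of 12 tested genes of antigen presentation by class II molecules, 5 rose, 0 fell and 7 did not pass, with a median of 0.21. H2-Eb1, a class II beta chain, ran from 5.70 to 6.17 (median 5.90) in the controls and from 6.94 to 7.26 (median 7.09) in the STZ mice. The groups were separate and each was narrow; the difference was 1.17 (SE 0.17, adjusted p = 0.000295). The alpha chain gene H2-Aa ran from 5.83 to 6.64 (median 6.37) in the controls and from 7.15 to 7.73 (median 7.55) in the STZ mice, also without overlap, a difference of 1.18 (SE 0.21, adjusted p = 0.00188), and its other probe sets differed by 0.91 and 1.05. The beta chain gene H2-Ab1 rose by 0.79 (SE 0.17, adjusted p = 0.00945), the invariant chain gene Cd74 by 0.92 (SE 0.19, adjusted p = 0.00637) and the protease gene Ctss, which trims the invariant chain, by 0.60 (SE 0.12, adjusted p = 0.00611). Each of the 5 calls held when any 1 array was left out; that of Ctss was lost on the values as deposited. The class I list gave 2 higher calls of 17 (median 0.16), H2-K1 at 0.59 (SE 0.12, adjusted p = 0.00675) and H2-D1 at 0.56 (SE 0.13, adjusted p = 0.0146), 0 of which held on the values as deposited. The probe sets of H2-Aa, H2-Ab1, H2-K1 and H2-D1 are marked by the array maker as able to bind related sequences.

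All 23 tested markers of Kupffer cells, the resident macrophages of the liver, had a higher mean in STZ liver. Of these 6 were called, with a median of 0.27 over the list. Their summed intensity ran from 1990 to 2518 in the controls and from 2711 to 3560 in the STZ mice, with no overlap. The pore-forming gene Mpeg1 rose by 0.70 (SE 0.16, adjusted p = 0.0111), the complement gene C1qb by 0.62 (SE 0.15, adjusted p = 0.0164), the scavenger protein gene Cd5l by 0.58 (SE 0.14, adjusted p = 0.0202) and Ctss as given for class II genes; C1qa (0.48) and Lyz1 (0.41), named after their values were seen, completed the list. The defining genes Clec4f (0.26), Timd4 (0.25), Vsig4 (0.36), Adgre1 (0.21) and Csf1r (0.28), likewise chosen after their values were seen, did not pass the test. On the values as deposited 1 marker was called, and 3 were called without control 5, control 6 or STZ 6. Calls were lost for Cd5l (without control 5, control 6 or STZ 6, adjusted p up to 0.0659). In bulk liver, more cells of a type and more RNA per cell cannot be told apart, and the part of these cells in the interferon and class II changes was not tested.

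Upstream of the class II and interferon genes, the promoter sequences were searched on both strands for 2 short motifs. The core of the interferon-stimulated response element, GAAA followed by any 2 bases and GAAA again, lay in 978 of 32851 promoter windows (2.98%), and CTGATTGG, the Y box of class II promoters, in 1258 (3.83%); each window was the 250 bases before a gene start. Of the called type I interferon genes, 9 of 16 had an entry in the promoter table and 4 of these held the interferon motif. The interferon-gamma list had 4 of 5 in the table, 3 with the interferon motif and 1 with CTGATTGG. Of the class II calls 3 of 5 were in the table, 2 with CTGATTGG and 1 with the interferon motif. The 6 matched promoters with the largest rises are shown because they place the motif beside the genes that rose, with the motif in capitals, 5' to 3' on the gene's strand (RefSeq, GRCm38.p6):
H2-Aa (chr17:34287824-34288073, minus strand): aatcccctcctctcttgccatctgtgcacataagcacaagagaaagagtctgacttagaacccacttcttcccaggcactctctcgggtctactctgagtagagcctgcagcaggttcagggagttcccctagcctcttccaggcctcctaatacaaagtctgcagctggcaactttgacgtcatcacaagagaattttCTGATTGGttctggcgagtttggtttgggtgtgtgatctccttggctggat
H2-Eb1 (chr17:34305617-34305866, plus strand): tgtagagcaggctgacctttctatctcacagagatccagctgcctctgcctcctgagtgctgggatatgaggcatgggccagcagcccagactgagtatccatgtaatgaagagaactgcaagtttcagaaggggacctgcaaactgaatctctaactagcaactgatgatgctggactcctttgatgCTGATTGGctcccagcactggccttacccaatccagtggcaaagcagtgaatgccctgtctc
Gbp3 (chr3:142559794-142560043, plus strand): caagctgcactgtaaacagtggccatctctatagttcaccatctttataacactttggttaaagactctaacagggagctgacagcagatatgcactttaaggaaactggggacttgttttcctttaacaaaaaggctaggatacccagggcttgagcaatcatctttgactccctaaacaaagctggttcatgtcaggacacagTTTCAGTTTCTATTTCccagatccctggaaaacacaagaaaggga
Ifit1 (chr19:34640639-34640888, plus strand): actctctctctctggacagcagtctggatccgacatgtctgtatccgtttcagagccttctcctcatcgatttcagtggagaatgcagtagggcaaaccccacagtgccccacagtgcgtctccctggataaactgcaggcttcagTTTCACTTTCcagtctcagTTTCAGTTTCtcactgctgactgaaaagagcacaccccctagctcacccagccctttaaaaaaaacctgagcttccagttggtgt
Oas1a (chr5:120907526-120907775, minus strand): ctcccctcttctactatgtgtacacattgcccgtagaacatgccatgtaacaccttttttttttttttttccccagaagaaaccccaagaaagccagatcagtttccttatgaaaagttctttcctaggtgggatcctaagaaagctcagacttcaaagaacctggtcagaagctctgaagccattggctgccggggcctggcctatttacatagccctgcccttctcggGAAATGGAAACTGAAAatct
Rsad2 (chr12:26456453-26456702, minus strand): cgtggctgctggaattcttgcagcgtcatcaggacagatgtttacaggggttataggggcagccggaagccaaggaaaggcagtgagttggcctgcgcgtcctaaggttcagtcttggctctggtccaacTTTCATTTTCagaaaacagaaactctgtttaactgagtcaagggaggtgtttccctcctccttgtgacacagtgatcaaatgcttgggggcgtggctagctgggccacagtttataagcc
The class II motif started 51 bases before the gene start in H2-Aa and 62 bases before it in H2-Eb1. Ifit1 held 2 separate copies of the interferon motif, starting 104 and 85 bases before the start, and Oas1a held 2 overlapping ones at 20 and 14. Gbp3 held 2 overlapping copies and Rsad2 a single one; in Gbp3, Ifit1 and Rsad2 they read on the opposite strand. A match describes these letters and is no evidence of binding.

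Other inflammatory lists are given beside shares of 2.03% higher and 1.69% lower over all genes tested. Among NF-kappaB cytokines, chemokines and adhesion molecules 1 of 28 was higher and 0 lower (median 0.04): Cd14, the endotoxin co-receptor, at 0.37 (SE 0.10, adjusted p = 0.0412). Acute phase proteins gave 2 higher calls of 31 (median 0.03), Orm2 at 1.42 (SE 0.39, adjusted p = 0.0369) and Serpina3n at 0.37 (SE 0.10, adjusted p = 0.0316). Saa1, a major acute phase protein, differed by -0.52 (SE 0.42, adjusted p = 0.587) with SDs of 1.02 in the controls and 0.50 in the STZ mice, and the siderophore-binding protein gene Lcn2 by 1.14 (SE 0.35, adjusted p = 0.0719). Calls were lost without single arrays for Cd14 (without 9 of the 12 arrays, adjusted p up to 0.113 without STZ 6), Orm2 (without 9 of the 12 arrays, adjusted p up to 0.11 without STZ 6) and Serpina3n (without 8 of the 12 arrays, adjusted p up to 0.0765 without control 5), and 0 acute phase calls were left at the lowest count.

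Cytochromes P450 of the Cyp2b and Cyp2c families, which oxidise drugs and steroids, gave 4 higher and 1 lower call of 13 tested, with a median of 0.51. Cyp2c39, a retinoic acid hydroxylase, ran from 6.34 to 7.58 (median 6.94) in the controls and from 9.28 to 10.49 (median 9.73) in the STZ mice. Its groups were far apart, with a difference of 2.85 (SE 0.47, adjusted p = 0.000897), or 7.23-fold. Cyp2b9, one of the female-biased members, ran from 4.93 to 6.01 (median 5.46) in the controls and from 7.08 to 8.69 (median 8.37) in the STZ mice and differed by 2.59 (SE 0.48, adjusted p = 0.00286). Cyp2c38 ran from 6.31 to 7.17 (median 6.86) in the controls and from 8.24 to 9.61 (median 8.81) in the STZ mice and differed by 2.02 (SE 0.46, adjusted p = 0.0121). None of these 3 overlapped, while Cyp2b13 rose by 0.92 (SE 0.23, adjusted p = 0.0224) and Cyp2c70, a bile acid hydroxylase named after its value was seen, fell at -0.60. This only lower call of the list was lost without control 3, 4 or 5 or STZ 2, 3, 5 or 6 and on the values as deposited. Cyp2b10, a standard target of the receptor CAR, differed by 1.06 (SE 0.34, adjusted p = 0.0824) and did not pass; in the fit over every probe set its other probe sets gave 1.01 (adjusted p = 0.0766) and 1.02 (adjusted p = 0.0289), so the probe sets split over the threshold. These families are close in sequence, so signal could be shared between members. The call of Cyp2b13 (without control 1, STZ 3 or STZ 6, adjusted p up to 0.0685) was lost without single arrays.

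Other drug-metabolizing P450 genes gave 2 higher and 2 lower calls of 20 (median 0.03). Cyp3a44 rose by 1.20 (SE 0.25, adjusted p = 0.00769) and Cyp3a13 by 0.46 (SE 0.11, adjusted p = 0.018). Cyp1a2, which oxidises caffeine, fell at -0.60 (SE 0.15, adjusted p = 0.0201) and Cyp2u1, a fatty acid hydroxylase, at -0.79 (SE 0.16, adjusted p = 0.00637). Cyp2e1, the ethanol-oxidising form, stood at -0.02 (SE 0.06, adjusted p = 0.891). The calls lost without single arrays were those of Cyp1a2 (without control 3 or STZ 3, adjusted p up to 0.0601) and Cyp3a13 (adjusted p = 0.0631 without STZ 6).

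Glutathione S-transferases, which attach glutathione to reactive compounds, gave 3 higher and 1 lower call of 19 (median 0.25). Gsta2 ran from 6.52 to 7.33 (median 6.97) in the controls and from 8.45 to 9.86 (median 9.09) in the STZ mice. It separated the groups and differed by 2.14 (SE 0.42, adjusted p = 0.00392). Gstm2 rose by 0.87 (SE 0.15, adjusted p = 0.0012) and the membrane-bound Mgst3 by 0.77 (SE 0.16, adjusted p = 0.00774), while Gstm6 fell at -0.42 (SE 0.11, adjusted p = 0.0316). In the list of other NRF2 targets, 25 of 27 had a higher mean in STZ liver, 4 were called higher and 0 lower (median 0.24). Ephx1, an epoxide hydrolase that is also on the p53 list, ran from 9.09 to 9.63 (median 9.43) in the controls and from 10.77 to 11.17 (median 11.06) in the STZ mice and differed by 1.63 (SE 0.25, adjusted p = 0.000351). Nfe2l2, which encodes NRF2 itself, rose by 0.71 (SE 0.14, adjusted p = 0.00563), the carboxylesterase gene Ces1g by 0.56 (SE 0.14, adjusted p = 0.0244) and the efflux pump gene Abcc4 by 0.52 (SE 0.11, adjusted p = 0.00826). Named after their values were seen, Nqo1 at 0.41 (adjusted p = 0.134) and Hmox1 at 0.11 (adjusted p = 0.755) did not pass. Calls were lost for Gstm6 (without 7 of the 12 arrays, adjusted p up to 0.071 without STZ 6) and Ces1g (without 5 of the 12 arrays, adjusted p up to 0.0674 without control 3), and on the values as deposited for Mgst3, Gstm6, Nfe2l2 and Ces1g.

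Conjugation enzymes gave 4 higher and 3 lower calls of 26 (median 0.09). Sulfotransferases split: Sult1d1 rose by 1.07 (SE 0.25, adjusted p = 0.013) and Sult1a1 by 0.90 (SE 0.21, adjusted p = 0.0158), but Sult5a1 fell at -1.15 (SE 0.17, adjusted p = 0.000351) and so did Sult1c2 (-0.46). The Nat8 acetyltransferase (-0.52) fell and Ugdh, which makes UDP-glucuronic acid (0.60), rose; these and Sult1c2 were named after their values were seen. Nnmt, which methylates nicotinamide, ran from 4.85 to 6.12 (median 4.97) in the controls and from 6.06 to 9.35 (median 7.91) in the STZ mice. The STZ mice spread over more than 3 log2 units and 5 of 6 exceeded all controls; the difference was 2.70 (SE 0.53, adjusted p = 0.00463), or 6.52-fold. The higher count was 2 without STZ 6 and 1 on the values as deposited. One call named by rule was lost, that of Sult1a1 (adjusted p = 0.0554 without STZ 6).

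Uptake and efflux transporters gave 5 higher and 4 lower calls of 26 (median 0.06). The organic anion carriers split by member. Slco1a4 ran from 5.37 to 5.78 (median 5.61) in the controls and from 5.94 to 8.38 (median 7.30) in the STZ mice, without overlap, and rose by 1.56 (SE 0.33, adjusted p = 0.00694), while the male-biased Slco1a1 fell at -0.96 (SE 0.25, adjusted p = 0.0299). Abcb4, the phospholipid pump of bile, rose by 0.64 (SE 0.13, adjusted p = 0.00511) and the dicarboxylate carrier gene Slc13a3 by 0.59 (SE 0.13, adjusted p = 0.0098). Chosen after their values were seen, the glucose carrier gene Slc2a1 (0.45) and the carnitine carrier gene Slc22a5 (0.51) rose, and the efflux pump gene Abcg2 (-0.50), Slc22a30 (-0.51) and Slco2a1 (-0.41) fell. Left-out arrays took the higher count as low as 3 and the lower count as low as 1, and ended the call of Slco1a1 (without 6 of the 12 arrays, adjusted p up to 0.0926 without STZ 6).

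Of 30 tested genes that are higher in male than in female liver and depend on the pulsed growth hormone of males, 15 fell, 0 rose and the other 15 did not pass. The median was -0.69, and 11 had all STZ mice below all controls. Hsd3b5, a steroid dehydrogenase that marks male liver, ran from 11.26 to 11.55 (median 11.37) in the controls and from 8.63 to 10.46 (median 9.39) in the STZ mice. The controls lay within a narrow band and the STZ mice spread below it, with a difference of -1.89 (SE 0.52, adjusted p = 0.0369). Serpina12, which encodes the adipokine vaspin, ran from 8.55 to 9.71 (median 9.17) in the controls and from 6.32 to 8.39 (median 6.55) in the STZ mice and differed by -2.08 (SE 0.52, adjusted p = 0.0219), without overlap. Serpina4-ps1 ran from 7.39 to 9.04 (median 8.13) in the controls and from 4.74 to 7.51 (median 5.35) in the STZ mice, with 5 of 6 STZ mice below all controls, and differed by -2.56 (SE 0.50, adjusted p = 0.00389). The receptor gene Egfr fell at -1.42 (SE 0.35, adjusted p = 0.0202) (its other probe sets ran from -1.40 to 0.06), the lipocalin gene Obp2a at -1.42 (SE 0.30, adjusted p = 0.00825) and the oxysterol hydroxylase gene Cyp7b1 at -0.83 (SE 0.22, adjusted p = 0.0316). A second Cyp7b1 probe set differed by -1.01 (adjusted p = 0.00987 in the limma fit over every probe set). The count of 15 was 8 without control 3, 9 without control 5 or STZ 3, and 5 without STZ 6. On the values as deposited it was 11, and 10 with the replicate number as a block. Calls lost without arrays were those of Hsd3b5 (without 10 of the 12 arrays, adjusted p up to 0.0994 without STZ 6), Serpina12 (without 4 of the 12 arrays, adjusted p up to 0.0632 without STZ 6), Egfr (without 4 of the 12 arrays, adjusted p up to 0.0583 without control 5) and Cyp7b1 (without 6 of the 12 arrays, adjusted p up to 0.0979 without STZ 6); all of them were kept on the values as deposited.

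Of 29 tested genes that are higher in female liver, 10 rose, 0 fell and 19 did not pass, with a median of 0.39, and 9 separated the groups. Cyp17a1, a steroid hydroxylase, ran from 4.10 to 5.38 (median 5.16) in the controls and from 5.86 to 7.79 (median 6.85) in the STZ mice, with no overlap, and differed by 1.77 (SE 0.36, adjusted p = 0.0053). Cyp2b9, Cyp2c39, Cyp3a44 and Cyp2b13, described with the P450 genes, and the fatty acid carrier gene Cd36 also belonged to the 10. Fmo1 (0.56), Slc22a27 (0.58) and Rtn4 (0.54), chosen after their values were seen, and Vldlr (0.52) completed them. The call of Vldlr (without 9 of the 12 arrays, adjusted p up to 0.117 without STZ 2) was lost without single arrays. All mice were male, so these are lists by known sex bias and no sexes were compared.

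The growth hormone axis itself gave 1 higher and 1 lower call of 17 (median -0.06). Igfals, which holds IGF-1 in the circulation, fell at -0.47 (SE 0.11, adjusted p = 0.013) and the estrogen receptor gene Esr1 rose by 0.49 (SE 0.11, adjusted p = 0.014). Igf1 ran from 10.60 to 10.86 (median 10.76) in the controls and from 10.45 to 10.86 (median 10.68) in the STZ mice. The groups overlapped and the difference was -0.07 (SE 0.09), with a 95% interval that included 0. Chosen after their values were seen, the growth hormone receptor gene Ghr at -0.48 (adjusted p = 0.0504) and the repressor gene Bcl6 at -0.98 (adjusted p = 0.113) did not pass. Esr1 was also the only call of 33 nuclear receptor genes (median 0.04). Neither call was kept on the values as deposited.

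**Figure D3:**
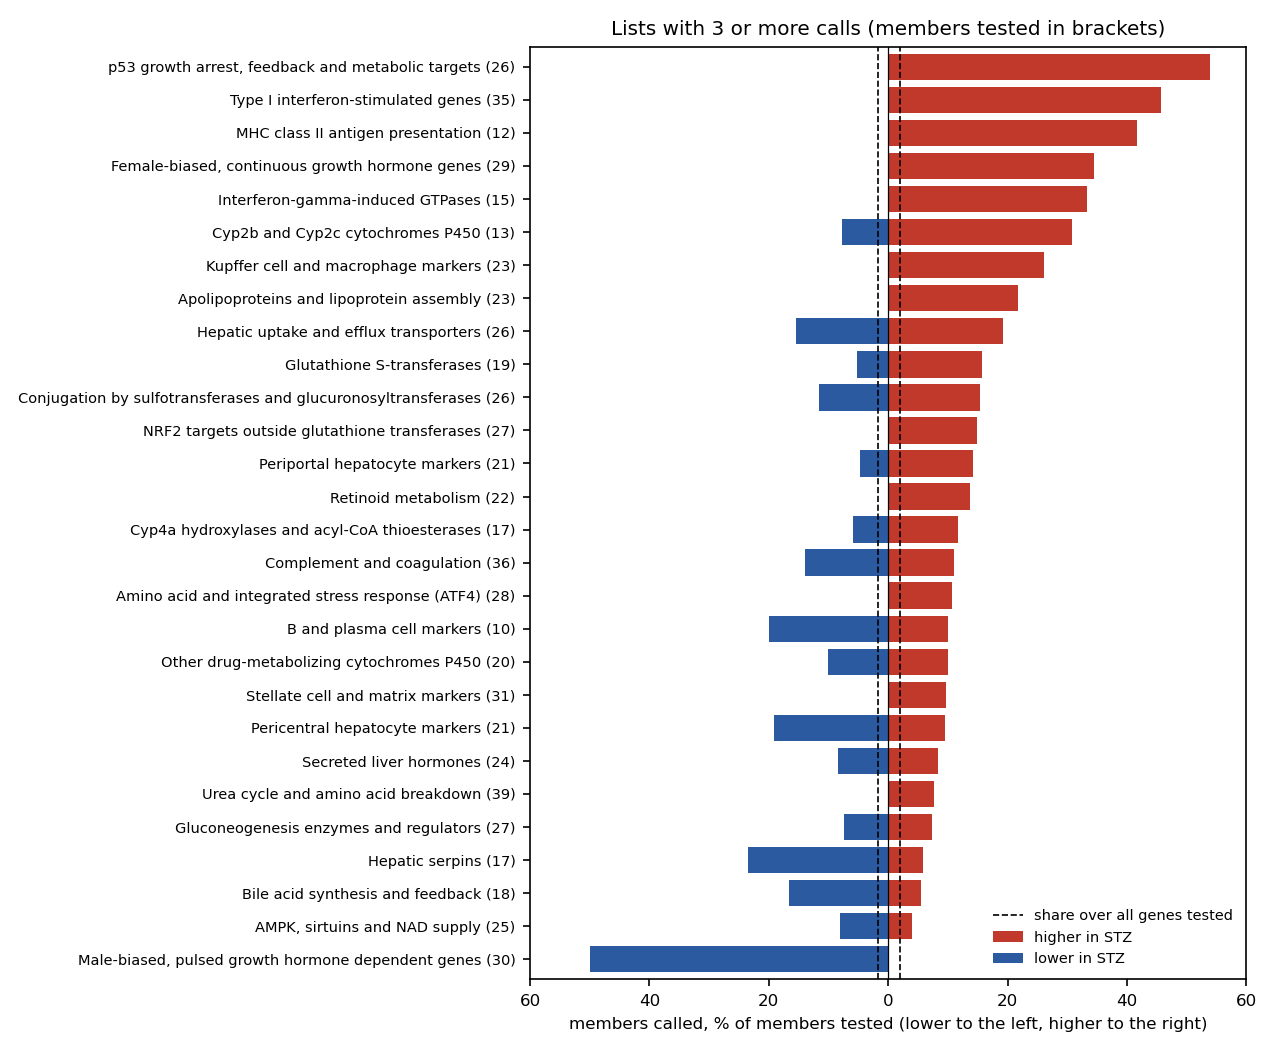
Bars give the percent of each list's tested members that were called higher (red, to the right) or lower (blue, to the left) in STZ liver, for lists with 3 or more calls; dashed lines mark the share over all 13114 genes, 2.03% higher and 1.69% lower. The p53 arrest list reaches farthest to the right (14 of 26) and the male-biased list farthest to the left (15 of 30). The lists were chosen with earlier results of these data known, so the distance from the dashed lines is no test.

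Insulin signalling and glucose production lists are read against the 3.72% called over all genes. Igfbp1, a binding protein that insulin represses, ran from 6.67 to 8.23 (median 7.67) in the controls and from 7.95 to 10.12 (median 8.84) in the STZ mice. The groups touched, with 5 of 6 STZ mice above all controls, and the difference was 1.41 (SE 0.33, adjusted p = 0.0138); it was the only higher call of 28 insulin signalling and IGF-binding genes (1 lower, Igfals; median -0.07). Gluconeogenesis gave 2 higher and 2 lower calls of 27 (median 0.04). Got1, an aspartate transaminase that carries carbon out of mitochondria, rose by 1.03 (SE 0.29, adjusted p = 0.0424) and Fbp1 by 0.23 (SE 0.07, adjusted p = 0.0472). The glucagon receptor gene Gcgr fell at -0.26 (SE 0.07, adjusted p = 0.0265) and the transcription factor gene Cebpa at -0.59 (SE 0.15, adjusted p = 0.028). Pck1, which catalyses the first committed step, ran from 9.91 to 10.39 (median 10.21) in the controls and from 10.49 to 11.14 (median 10.77) in the STZ mice. All 6 STZ mice lay above all controls, but the difference of 0.58 (SE 0.17, adjusted p = 0.0536) did not pass. Another Pck1 probe set differed by 1.13 (adjusted p = 0.00741 in the fit over every probe set), so its probe sets differ in call. G6pc, the final enzyme, at 0.39 (SE 0.30, adjusted p = 0.569), did not pass. Calls were lost without arrays for Igfbp1 (adjusted p = 0.0505 without STZ 6), Got1 (without 11 of the 12 arrays, adjusted p up to 0.109 without STZ 3), Fbp1 (without 10 of the 12 arrays, adjusted p up to 0.106 without STZ 3), Gcgr (without 5 of the 12 arrays, adjusted p up to 0.0667 without control 3) and Cebpa (without 7 of the 12 arrays, adjusted p up to 0.0719 without control 3). On the values as deposited, 0 of the 4 gluconeogenesis calls were kept.

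Of 20 glycolysis, fructose and glucose sensing genes 1 was higher (median 0.03): Arrdc4, an arrestin that limits glucose uptake, at 0.59 (SE 0.12, adjusted p = 0.00478). Its relative Txnip differed by -0.01 (SE 0.17, adjusted p = 0.987). Glycogen genes gave 1 higher call of 17 (median -0.05), Ugp2, which makes UDP-glucose, at 0.39 (SE 0.09, adjusted p = 0.00972). The 12 genes of pyruvate dehydrogenase and its kinases gave 0 calls with limma, with 3 members at an unadjusted p under 0.05; Pdk4, the kinase that shuts the complex in fasting, ran from 4.63 to 5.29 (median 5.10) in the controls and from 5.06 to 5.75 (median 5.44) in the STZ mice, with overlapping groups, and differed by 0.41 (SE 0.13, adjusted p = 0.0723). Glucokinase was below the signal filter and was not tested.

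Fat synthesis gave 1 higher and 1 lower call of 28 (median -0.09). Fasn, the fatty acid synthase, ran from 8.55 to 9.44 (median 8.97) in the controls and from 7.96 to 9.82 (median 8.71) in the STZ mice. The ranges overlapped and the difference was -0.24 (SE 0.28, adjusted p = 0.725). Srebf1, the transcription factor that insulin uses to drive the pathway, differed by -0.53 (SE 0.19, adjusted p = 0.121). The called members were Mogat1, a monoacylglycerol acyltransferase, at 0.71 (SE 0.14, adjusted p = 0.00389) and Gpam, the first enzyme of triglyceride assembly, at -0.42 (SE 0.12, adjusted p = 0.043). Cholesterol synthesis gave 1 lower call of 22 (median -0.07), the sterol sensor gene Scap at -0.34 (SE 0.09, adjusted p = 0.0323). Calls were lost without arrays for Gpam (without 9 of the 12 arrays, adjusted p up to 0.106 without control 6) and Scap (without 8 of the 12 arrays, adjusted p up to 0.0837 without STZ 3).

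**Figure D4:**
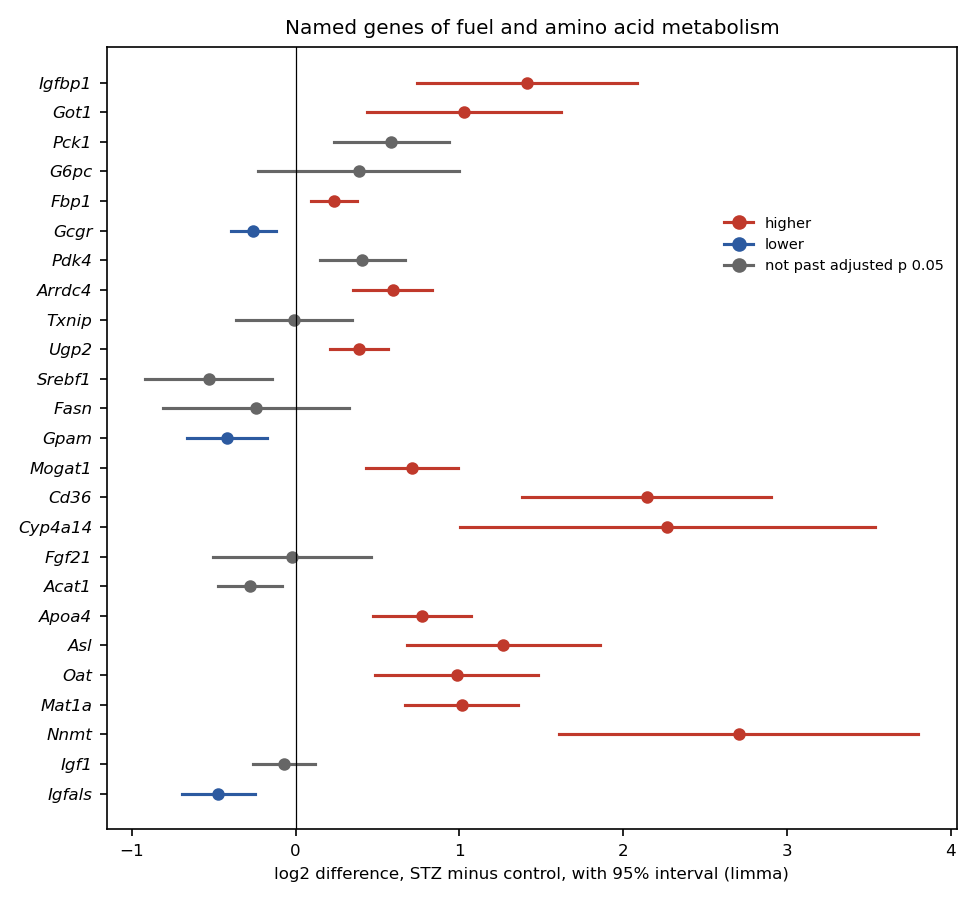
The log2 difference between STZ and control liver with its 95% interval is plotted for genes of fuel and amino acid metabolism; red marks genes called higher, blue lower and grey genes not past the threshold. Cyp4a14 (2.27), Cd36 (2.14) and Igfbp1 (1.41) lie to the right, while the intervals of G6pc and Fasn include 0.

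Uptake of fatty acids showed 1 strong rise. Cd36, the fatty acid translocase, ran from 5.23 to 5.80 (median 5.68) in the controls and from 7.25 to 8.22 (median 7.84) in the STZ mice, with more than 1 log2 unit between the groups, and differed by 2.14 (SE 0.37, adjusted p = 0.00147); its other probe sets gave 1.67 and 0.79. With Vldlr, which takes up lipoprotein, at 0.52 (SE 0.15, adjusted p = 0.0452), it made 2 higher calls of 22 in the list of Pparg, Cd36 and lipid droplet genes (median 0.03). Fatty acid oxidation and ketogenesis gave 0 calls of 32 (median 0.06) with limma and 4 members at an unadjusted p under 0.05; the smallest p there belonged to Acat1, which makes acetoacetyl-CoA, at -0.28 (SE 0.10, adjusted p = 0.105). The Cyp4a and acyl-CoA thioesterase list gave 2 higher and 1 lower call of 17 (median 0.17). Cyp4a14, a fatty acid omega-hydroxylase, ran from 4.09 to 4.82 (median 4.41) in the controls and from 5.36 to 9.30 (median 6.71) in the STZ mice. It separated the groups, yet the STZ mice covered nearly 4 log2 units with STZ 6 alone at the top, and the difference was 2.27 (SE 0.62, adjusted p = 0.0358). Acot2, a mitochondrial thioesterase, rose by 0.57 (SE 0.13, adjusted p = 0.0128) and Cyp4v3 fell at -0.38 (SE 0.11, adjusted p = 0.0444). Fgf21, the fasting hormone, differed by -0.02 (SE 0.24, adjusted p = 0.975). Calls lost without arrays were those of Vldlr (without 9 of the 12 arrays, adjusted p up to 0.117 without STZ 2), Cyp4a14 (without 10 of the 12 arrays, adjusted p up to 0.112 without STZ 6) and Cyp4v3 (without 10 of the 12 arrays, adjusted p up to 0.115 without STZ 6).

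Lipoprotein genes gave 5 higher and 0 lower calls of 23 (median 0.04). Tm6sf2, which helps load lipid onto particles, rose by 0.80 (SE 0.21, adjusted p = 0.0274) and Apoa4 by 0.77 (SE 0.15, adjusted p = 0.003), with another Apoa4 probe set at 1.03. The phospholipid transfer protein gene Pltp rose by 0.53 (SE 0.11, adjusted p = 0.00825) and Apoc2, the activator of lipoprotein lipase, by 0.44 (SE 0.12, adjusted p = 0.0323); Apoa5 (0.30) was named after its value was seen. On the values as deposited 1 of these was called, and after median scaling 2. The count was 2 without control 3, STZ 3 or STZ 6, and the calls of Tm6sf2 (without 5 of the 12 arrays, adjusted p up to 0.0674 without control 3) and Apoc2 (without 8 of the 12 arrays, adjusted p up to 0.0809 without STZ 2) were lost.

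Bile acid synthesis gave 3 lower and 1 higher call of 18 (median -0.12). The oxysterol hydroxylase gene Cyp7b1 fell at -0.83 (SE 0.22, adjusted p = 0.0316), the side chain hydroxylase gene Cyp27a1 at -0.26 (SE 0.07, adjusted p = 0.0325) and the racemase gene Amacr at -0.25 (SE 0.07, adjusted p = 0.0314), and Akr1d1, the bile acid 5-beta-reductase, rose by 0.66 (SE 0.17, adjusted p = 0.0293). In the limma fit over every probe set, second probe sets differed by -1.01 for Cyp7b1 (adjusted p = 0.00987) and 0.94 for Akr1d1 (adjusted p = 0.0166). Cyp7a1, the rate-limiting enzyme of the classic route, differed by -0.15 (SE 0.67, adjusted p = 0.942), with SDs of 1.31 in the controls and 1.66 in the STZ mice. Calls were lost without arrays for Cyp7b1 (without 6 of the 12 arrays, adjusted p up to 0.0979 without STZ 6), Cyp27a1 (without 8 of the 12 arrays, adjusted p up to 0.0729 without STZ 3), Amacr (without 8 of the 12 arrays, adjusted p up to 0.0758 without STZ 6) and Akr1d1 (without 7 of the 12 arrays, adjusted p up to 0.0785 without control 5); the lower count was 0 at its lowest.

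Urea cycle and amino acid breakdown gave 3 higher and 0 lower calls of 39 (median 0.07). Asl, which splits argininosuccinate into arginine, ran from 8.92 to 9.39 (median 9.24) in the controls and from 9.90 to 11.14 (median 10.49) in the STZ mice. It separated the groups and differed by 1.27 (SE 0.29, adjusted p = 0.0121). Oat, which feeds ornithine carbon to glutamate, rose by 0.98 (SE 0.24, adjusted p = 0.0202) and the ornithine carrier gene Slc25a15 by 0.39 (SE 0.10, adjusted p = 0.0223). In the methionine cycle, 2 of 24 were higher (median 0.04): Nnmt, described with the conjugation enzymes, and Mat1a, which makes S-adenosylmethionine. Mat1a ran from 10.26 to 10.67 (median 10.53) in the controls and from 11.21 to 11.78 (median 11.56) in the STZ mice, without overlap, and differed by 1.01 (SE 0.17, adjusted p = 0.000939). The count of the urea list was 1 without STZ 2 or STZ 3 and on the values as deposited, with losses for Oat (without STZ 2, STZ 3 or STZ 6, adjusted p up to 0.056) and Slc25a15 (without STZ 2 or STZ 3, adjusted p up to 0.0667).

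Complement and coagulation genes moved both ways, with 4 higher and 5 lower calls of 36 (median 0.05). The mannose-binding lectins split. Mbl2 ran from 10.48 to 10.80 (median 10.65) in the controls and from 11.71 to 11.95 (median 11.83) in the STZ mice. Both groups were tight and did not overlap, and the difference was 1.18 (SE 0.17, adjusted p = 0.000218), while Mbl1, named after its value was seen, fell at -0.39. Of the membrane attack complex, C6 fell at -0.99 (SE 0.25, adjusted p = 0.021) and C8a at -0.70 (SE 0.14, adjusted p = 0.00377), as did C8g (-0.27) and C9 (-0.50), named after their values were seen. C8b at -0.55 (adjusted p = 0.0883) and Hc, which encodes C5, at -0.03 (adjusted p = 0.856), chosen in the same way, did not pass. The first component genes C1qa and C1qb, given with the Kupffer markers, and Kng1 (0.50), named likewise, rose. The lower count was 1 without STZ 6, 2 without STZ 3 and 3 without control 2, 3 or 4 or STZ 5; the call of C6 (without STZ 3 or STZ 6, adjusted p up to 0.0655) was lost.

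Hepatic serpins gave 4 lower and 1 higher call of 17 (median 0.00). Beside Serpina4-ps1 and Serpina12, Serpina9 fell at -0.997 (SE 0.19, adjusted p = 0.00412) and Serpina11 at -0.80 (SE 0.16, adjusted p = 0.00484), while Serpina6, the corticosteroid-binding globulin named after its value was seen, rose by 0.67. A second Serpina12 probe set differed by -0.31. Among 24 secreted liver hormones (2 higher, 2 lower, median 0.02) the chemotactic factor gene Lect2 fell at -0.68 (SE 0.15, adjusted p = 0.00841) and Grn, the progranulin gene, rose by 0.40 (SE 0.10, adjusted p = 0.0148), with Igfbp1 and Serpina12 as the other calls. Hamp, the iron hormone hepcidin, differed by 0.05 (SE 0.10, adjusted p = 0.867). The call of Grn (adjusted p = 0.0533 without STZ 6) was lost without single arrays.

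Stress programs outside p53 are given beside the same shares over all genes, 2.03% higher and 1.69% lower. ER chaperones gave 2 higher calls of 27 (median 0.12), Hsp90b1 at 0.45 (SE 0.13, adjusted p = 0.0458) and Pdia6 at 0.44 (SE 0.13, adjusted p = 0.0491). A second Hsp90b1 probe set differed by 0.83 (adjusted p = 0.0067 in the limma fit over every probe set). The ATF4 list gave 3 of 28 (median 0.07): Sesn2, Vldlr and the cationic amino acid carrier gene Slc7a2 at 0.67 (SE 0.17, adjusted p = 0.0278); without STZ 6 it held 0. Metallothioneins and peroxide enzymes gave 2 lower calls of 16 (median -0.01), the superoxide dismutase gene Sod1 at -0.42 (SE 0.12, adjusted p = 0.0373) and the ER peroxiredoxin gene Prdx4 at -0.34 (SE 0.09, adjusted p = 0.0363), while the metallothionein gene Mt1 differed by 1.10 (SE 0.46, adjusted p = 0.212). Heat shock proteins (21 genes, median 0.08), respiratory chain subunits (41 genes, median -0.01) and clock genes (27 genes, median 0.15) gave 0 calls with limma. In these 3 lists the smallest p belonged to Hspa4l at 0.39 (SE 0.12, adjusted p = 0.0629), Ndufb3 at -0.19 (SE 0.09, adjusted p = 0.266) and Cry1 at 0.43 (SE 0.16, adjusted p = 0.152), and 2, 3 and 4 members had an unadjusted p under 0.05. The calls lost without arrays were those of Hsp90b1 (without 8 of the 12 arrays, adjusted p up to 0.128 without control 3), Pdia6 (without 11 of the 12 arrays, adjusted p up to 0.115 without STZ 4), Slc7a2 (without 6 of the 12 arrays, adjusted p up to 0.0772 without STZ 6), Sod1 (without 10 of the 12 arrays, adjusted p up to 0.0933 without control 3) and Prdx4 (without 10 of the 12 arrays, adjusted p up to 0.0896 without control 3).

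Retinoid metabolism gave 3 higher calls of 22 (median 0.02): Rdh16 at 0.55 (SE 0.15, adjusted p = 0.0349), Retsat at 0.54 (SE 0.12, adjusted p = 0.0112) and Rdh5 at 0.39 (SE 0.11, adjusted p = 0.0363). They act on retinol or its oxidised forms, and 0 of them held on the values as deposited or after median scaling. Iron handling gave Hfe, which senses iron-loaded transferrin, at 0.44 (SE 0.11, adjusted p = 0.0286) and the heme oxygenase gene Hmox2 at -0.37 (SE 0.10, adjusted p = 0.0367), of 30 genes (median 0.03). Losses without arrays concerned Rdh16 (without 10 of the 12 arrays, adjusted p up to 0.0947 without STZ 2), Rdh5 (without 7 of the 12 arrays, adjusted p up to 0.104 without STZ 3), Hfe (without 6 of the 12 arrays, adjusted p up to 0.0749 without control 5) and Hmox2 (without 7 of the 12 arrays, adjusted p up to 0.107 without control 3). Glucocorticoid-responsive genes had a higher mean in STZ liver in 20 of 23 (median 0.33), with Cdkn1a and Cyp4a14 as the 2 calls. The count was 6 without STZ 1, and 1 without control 2, 3, 4, 5 or 6 or STZ 2, 3 or 6.

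Markers of the labelled tissue were strongly detected. Hepatocyte markers gave 0 calls of 11 with limma, with 0 members at an unadjusted p under 0.05, and their summed intensity ran from 57567 to 59234 in the controls and from 57684 to 60054 in the STZ mice. Hepatocytes near the central vein and near the portal tract carry different enzymes. Of 21 pericentral markers 4 were lower and 2 higher (median -0.02); the sum ran from 26620 to 27733 in the controls and from 23869 to 26774 in the STZ mice. Of 21 periportal markers 3 were higher and 1 lower (median 0.18), and the sum ran from 28604 to 30072 in the controls and from 32424 to 36517 in the STZ mice, without overlap. The calls in these lists have been described except Hsd17b6, a retinol and steroid dehydrogenase, at 0.70 (SE 0.17, adjusted p = 0.0206) with another probe set at -0.02, and Notum, a Wnt inhibitor named after its value was seen, at -0.45. Glul, the glutamine synthetase of the cells next to the central vein, differed by -0.33 (SE 0.16, adjusted p = 0.277). The pericentral lower count was 2 without control 3 or STZ 3, the periportal count 1 without control 3, STZ 3 or STZ 6, and the call of Hsd17b6 (without control 3, STZ 3 or STZ 6, adjusted p up to 0.0571) was lost.

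Among markers of B and plasma cells the called falls were Ighm and Jchain. Ighm, the heavy chain of IgM, ran from 7.07 to 8.12 (median 7.32) in the controls and from 5.20 to 6.35 (median 5.85) in the STZ mice. The groups did not overlap and the difference was -1.63 (SE 0.30, adjusted p = 0.00283), although its other probe sets gave 0.15, -0.09, -0.09 and -1.005. Jchain, which joins IgM units, fell at -0.58 (SE 0.13, adjusted p = 0.00888) and the syndecan gene Sdc1, which hepatocytes also express, rose by 0.62 (SE 0.13, adjusted p = 0.00868); that made 2 lower and 1 higher call of 10 (median -0.14). The summed level ran from 586 to 733 in the controls and from 605 to 864 in the STZ mice, mostly through Sdc1, with mean levels of 8.64 and 9.26. Sdc1 was the only 1 of the 10 markers with a higher mean in STZ liver.

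Endothelial markers gave 2 higher calls of 21 (median 0.03), the hyaluronan receptor gene Lyve1 at 1.02 (SE 0.18, adjusted p = 0.00181) and Egfl7 at 0.26 (SE 0.07, adjusted p = 0.0352), and their sum ran from 1381 to 1567 in the controls and from 1427 to 1651 in the STZ mice. Egfl7 had other probe sets at -0.04, 0.04 and -0.18, and the one that stood for it had an adjusted p of 0.0506 in the fit over every probe set. Stellate cell and matrix markers gave 3 higher calls of 31 (median 0.13), Vim at 0.50 (SE 0.14, adjusted p = 0.0396), Dcn at 0.41 (SE 0.10, adjusted p = 0.0219) and Mmp14 at 0.39 (SE 0.09, adjusted p = 0.0175), with a sum from 3550 to 3733 in the controls and from 3703 to 4285 in the STZ mice. Col1a1, the main fibrillar collagen, differed by 0.07 (SE 0.17, adjusted p = 0.896). On the values as deposited 0 of the stellate calls were kept, and without STZ 6 there were 0. Monocyte, T and NK, bile duct, adipocyte and erythroid lists gave 0 calls with limma and 2, 1, 3, 1 and 3 members at an unadjusted p under 0.05. The part of the non-hepatocyte cells in the other results was not tested. Calls lost without arrays were those of Egfl7 (without 9 of the 12 arrays, adjusted p up to 0.0912 without control 4), Vim (without 9 of the 12 arrays, adjusted p up to 0.103 without STZ 6), Dcn (without control 3, STZ 2 or STZ 6, adjusted p up to 0.0674) and Mmp14 (adjusted p = 0.0552 without STZ 6).

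Cela1, an elastase of the exocrine pancreas that some other tissues also express, ran from 8.93 to 9.34 (median 9.11) in the controls and from 7.50 to 8.10 (median 7.73) in the STZ mice. It did not overlap and differed by -1.38 (SE 0.20, adjusted p = 0.000327); it was the only call among 5 pancreas markers (median -0.17), and the acinar genes Cela3b (0.00), Prss2 (-0.17) and Cel (-0.22), chosen after their values were seen, did not pass.

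Some of the clearest changes lay in no list. Ly6e, a membrane-anchored protein induced by interferon among other signals, ran from 9.48 to 10.05 (median 9.76) in the controls and from 11.72 to 11.87 (median 11.79) in the STZ mice. The 6 STZ mice lay within 0.15 of each other, and the difference was 2.01 (SE 0.34, adjusted p = 0.00113); another probe set gave 0.63. Its relative Ly6d ran from 4.54 to 4.98 (median 4.63) in the controls and from 6.23 to 7.58 (median 6.98) in the STZ mice and differed by 2.27 (SE 0.27, adjusted p = 2.72e-05), and Ptgds, a lipocalin that makes prostaglandin D2, ran from 4.88 to 5.47 (median 5.10) in the controls and from 6.39 to 7.35 (median 7.04) in the STZ mice and differed by 1.83 (SE 0.32, adjusted p = 0.00146). Among the falls, Selenbp1, which oxidises methanethiol, ran from 11.38 to 11.90 (median 11.65) in the controls and from 9.85 to 10.66 (median 10.39) in the STZ mice and differed by -1.29 (SE 0.21, adjusted p = 0.000749). Tcf24, a transcription factor gene, ran from 5.85 to 6.26 (median 6.11) in the controls and from 4.43 to 4.85 (median 4.75) in the STZ mice and differed by -1.38 (SE 0.17, adjusted p = 2.72e-05). These 5 genes separated the groups, and their calls held when any 1 array was left out.

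Further falls of more than 2-fold by rule were those of the adhesion receptor gene Adgrv1 at -1.37 (SE 0.24), the ribonuclease gene Rnase2a at -1.32 (SE 0.20), the mitochondrial tRNA synthetase gene Fars2 at -1.17 (SE 0.18), the aldehyde oxidase gene Aox3 at -1.15 (SE 0.21) and the lectin gene Clec2d at -1.12 (SE 0.22). A predicted gene, Gm6958, rose by 1.89 (SE 0.36). Chosen after their values were seen, the acyltransferase gene Acnat2 (1.51), the secreted factor gene Fgl1 (1.44), the exocyst gene Exoc4 (1.38), the phosphatidylcholine carrier gene Pctp (1.23), the carboxylesterase gene Ces2e (1.13) and the death receptor gene Eda2r (1.03) rose. In the same way, the carboxylesterase gene Ces1e (-1.06), the succinate receptor gene Sucnr1 (-1.04) and the thyroid hormone deiodinase gene Dio1 (-0.79) fell. In all, 321 of the 488 called genes were in no list.

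The STZ mice did not differ from the controls to the same degree in every gene. The median SD within a group was 0.17 in both groups over all genes tested, and 301 of the 488 called genes had the larger SD in the STZ mice. Over the called genes, STZ 6 lay farthest from the control mean in 171 and STZ 1 nearest to it in 135. The 20 called genes with the highest SD in the STZ mice included Cyp4a14, Nnmt, Serpina12, Hsd3b5, Slco1a4 and Cyp2b9. For these, the median distance from the control mean in the direction of the call was 0.88 in STZ 1 and 1.12 in STZ 4, but 2.13, 2.28, 2.17 and 2.77 in STZ 2, 3, 5 and 6. In the 20 called genes of at least 2-fold with the lowest SD, among them Ly6e, Mbl2, H2-Eb1, Ephx1, Ccng1 and Cdkn1a, it was 1.13 to 1.27 in all 6 mice. Both sets were chosen by the spread itself, so this is a description with no test.

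**Figure D5:**
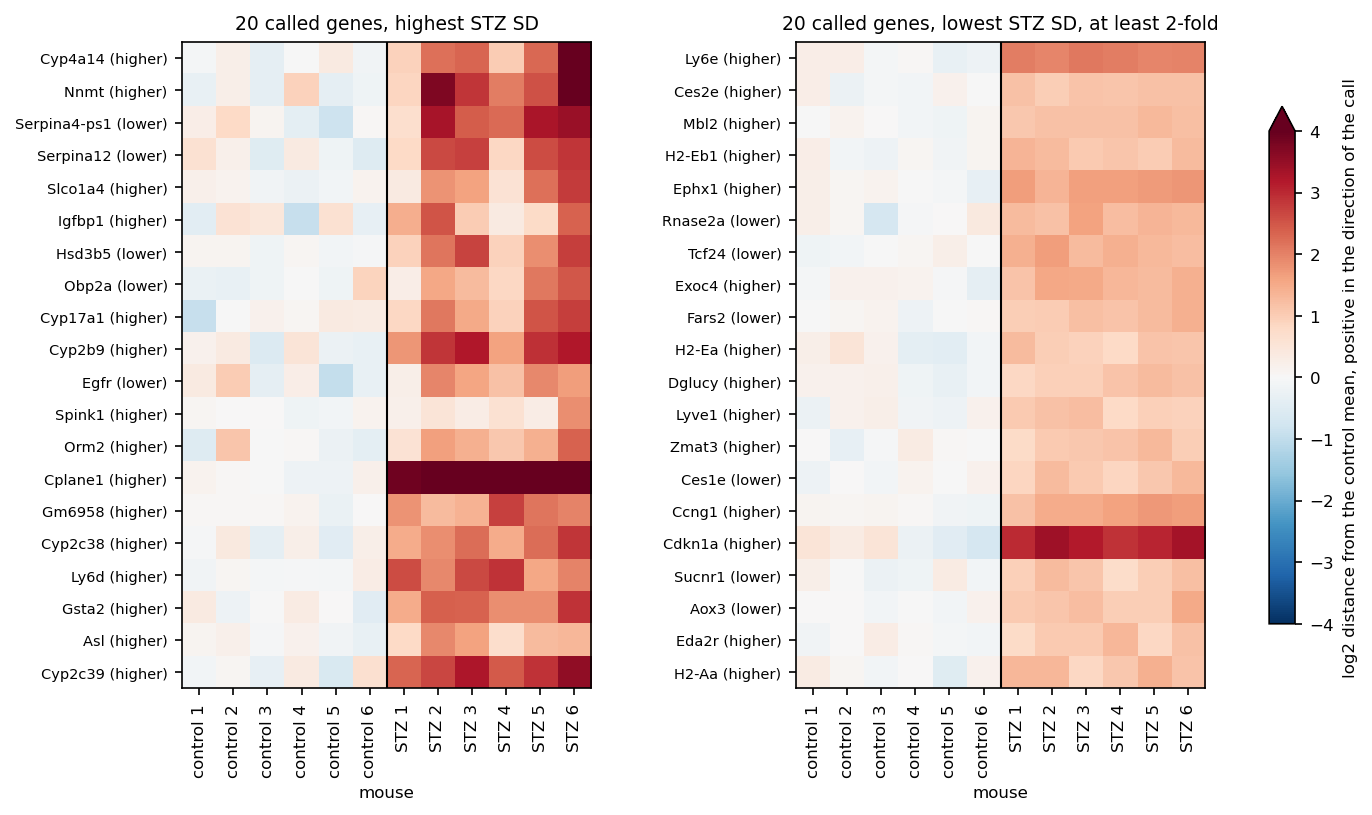
Colour gives the log2 distance of each mouse from the control mean, positive in the direction of the call, for the 20 called genes with the highest SD in the STZ mice (left) and the 20 of at least 2-fold with the lowest (right); each column is a mouse and the colour scale stops at 4. On the left STZ 1 and STZ 4 are paler than the other 4 STZ mice, with median distances of 0.88 and 1.12, and on the right the 6 lie between 1.13 and 1.27.

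Other probe sets of the called genes gave a check on the values. For 230 called genes at least 1 further probe set passed the filter, and for 184 of these every one pointed the same way; over the 414 further probe sets 362 did. The 46 genes with at least 1 opposing probe set included Cplane1, Mdm2, Ighm, Egfr, Sod1 and Hsd17b6, and 1 opposing probe set had an unadjusted p under 0.05. Of the 134 called genes named by rule, 73 stayed past the threshold without each array in turn and 61 did not, 57 of these without STZ 6.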

How the data were processed

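Total RNA from the liver of each mouse was labelled as biotin cRNA and hybridised to an Affymetrix 3' expression array, 1 array per mouse, per the labels' protocols. The authors deposited 1 linear intensity per probe set and array; the summary algorithm and scaling are not given in the sources used here. Means of the deposited values over the 12 arrays compared ran from 61.7 to 102, so values were quantile normalized over the 24 arrays and a pseudocount of 16 was added before log2. Probe sets were named from GEO's platform annotation, with 34754 of the 34958 single-symbol probe sets matched by gene ID to current symbols; 932 with several symbols and 9211 with none were left out. The probe set with the highest mean stood for its gene, and genes under the 40th percentile of mean signal were not tested. A model with 4 group means over all 24 arrays, limma 3.58.1 in R 4.3.3, gave the contrast and its moderated error; the quercetin arrays enter through that error. The pipeline was tested on simulated data.

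Genes named by rule were the 15 widest rises and 15 widest falls among called genes, the 4 called members of each list with the widest change (or, with no call, the member with the smallest p), and 48 genes of interest, of which 44 were tested. The members and lists were chosen with earlier results of these data known. Alternatives were the deposited values, median scaling, the 12 arrays alone, pseudocounts of 1 and 64, no filter or a 60th percentile filter, every probe set, a variance trend with robust fitting, the replicate number as a block, and each array left out. Chosen after seeing the data were the Gapdh covariate and leaving out quercetin 0.5% arrays 5 and 6, since they lay beside the controls on the first principal component and enter the error of every test. The number of arrays limits the precision: 6 mice a group gave a median SE of 0.108 over genes. Promoter sequences came from RefSeq, build GRCm38.p6. The p-values measure the spread between animals within the 4 groups, quercetin arrays included. Mice were housed 3 to a cage, but the cage of each mouse is not given, so cages could not be modelled. Nothing says that mice of a group were processed apart.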

Additional observations from a re-analysis of the deposited data

Results flagged for a closer look

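In 24 of 326 groups of 6 mice examined over the genes named by rule (7.36%), the highest or lowest mouse stood apart from the others of its group, with a gap to its nearest neighbour that took a larger part of the group's range than Dixon's critical value allows. Chance gives about 1 in 20 groups. Levels are log2(intensity + 16). Among the STZ mice, the mouse that stood above the rest was found for Abcc4 in STZ mouse 6 (5.27, nearest mouse 4.68), Cyp4a14 in STZ mouse 6 (9.3, nearest mouse 6.79), H2-Ab1 in STZ mouse 1 (6.66, nearest mouse 6.34), Ifit1 in STZ mouse 6 (7.64, nearest mouse 7.16), Ltf in STZ mouse 5 (4.72, nearest mouse 4.54) and Slc13a3 in STZ mouse 6 (5.89, nearest mouse 5.43). A single STZ mouse lay below the other 5 for Clec2d in STZ mouse 1 (4.38, nearest mouse 5.28), Ephx1 in STZ mouse 2 (10.8, nearest mouse 11), Esr1 in STZ mouse 1 (6.7, nearest mouse 7.11) and Rdh16 in STZ mouse 1 (7.06, nearest mouse 7.68). Among the controls, 1 mouse stood above the rest for C1qb in control mouse 2 (7.48, nearest mouse 7.11), Ces1g in control mouse 1 (8.67, nearest mouse 8.04), Cyp2u1 in control mouse 3 (7.29, nearest mouse 6.89), Cyp4v3 in control mouse 1 (10.9, nearest mouse 10.6), Orm2 in control mouse 2 (6.87, nearest mouse 5.8) and Prdx4 in control mouse 3 (9.54, nearest mouse 9.4). A control mouse lay below its group for Cd36 in control mouse 5 (5.23, nearest mouse 5.64), Cyp17a1 in control mouse 1 (4.1, nearest mouse 5.02), Cyp2b13 in control mouse 1 (4.11, nearest mouse 4.47), Gm6958 in control mouse 5 (4.4, nearest mouse 4.68), H2-Ab1 in control mouse 5 (4.97, nearest mouse 5.47), Igtp in control mouse 2 (7.06, nearest mouse 7.38), Nfe2l2 in control mouse 4 (7.42, nearest mouse 7.72) and Obp2a in control mouse 6 (6.21, nearest mouse 7.11). The STZ group held 10 of the 24 and the control group 14; STZ 1, STZ 6 and control 1 accounted for 4 each. The distance of STZ 6 was widest for Cyp4a14.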

How the results depend on the processing

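Higher and lower calls numbered 266 and 222. They were 120 and 41 on the values as deposited, 170 higher (281 lower) after median scaling, 140 lower (198 higher) with a pseudocount of 1, and 4 and 2 with the Gapdh 3' minus 5' difference in the model; the cause of these shifts was not tested. Leaving out 1 array at a time gave 146 to 257 higher and 100 to 209 lower calls, the fewest without STZ 6. The other settings stayed within 1.5 times: 354 and 320 for the 12 arrays normalized and fitted alone, 367 and 320 for the 12 arrays in the fit, 266 and 289 with a pseudocount of 64, 230 and 205 without a filter, 275 and 246 with the stricter filter, 280 and 223 over every probe set, 268 and 234 with the variance trend, and 345 and 307 without quercetin 0.5% arrays 5 and 6.

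The replicate block gave 240 higher and 171 lower calls. Same-numbered mice of both groups had deviations that correlated between -0.07 and 0.08, so the mice were not treated as pairs. Of the 6 controls, 2 correlated best with the STZ mouse of their own number. The second principal component was still higher at low than at high numbers. Controls 1 to 6 lay at 7.41, 6.81, 5.32, 0.28, -7.59 and -5.25 on it. STZ 1 to 6 lay at 9.57, 5.91, 6.89, 5.70, 0.32 and -4.64. What the numbers stand for is not given, and the source of this trend was not tested. No call among the genes named by rule changed sign in any setting; 7 genes that were not called, Col1a1, Cyp7a1, Fasn, Fgf21, Hamp, Per2 and Txnip, did in at least 1. Of the 134 called genes named by rule, 61 fell short of the threshold on the values as deposited, 30 after median scaling, 37 with a pseudocount of 1, 22 with the block and 130 with the Gapdh difference. Genes near background, such as Cplane1 in the controls, have changes that depend on the pseudocount.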

Other observations

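The metallothionein gene Mt2 differed by 1.09 (adjusted p = 0.08) and the major urinary protein gene Mup10 fell at -0.89; both were chosen after their values were seen, and Mup10 belongs to a family of near-identical genes that may share signal. Summed levels of the exocrine pancreas markers ran from 503 to 678 in the controls and from 193 to 280 in the STZ mice, mostly through Cela1. The summed erythroid level ran from 634 to 862 in the controls and from 390 to 660 in the STZ mice, mostly through the heme synthesis gene Alas2, which differed by -0.69 (adjusted p = 0.0761).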
